A study of Mus musculus with 6 samples.

Results

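Hdc neurons of the mouse hypothalamus were taken from single-nucleus RNA sequencing as nuclei with transcripts of Hdc, the gene of histidine decarboxylase, which makes histamine from histidine. A nucleus counted as a neuron if it held at least 1000 UMIs (unique molecular identifiers, 1 for each captured RNA molecule) and at least 2 UMIs of Snap25, Syt1 and Rbfox3 together, which are genes of synaptic vesicle fusion and neuronal splicing. It counted as an Hdc neuron if it also held at least 2 Hdc UMIs that came to at least 2 per 10000 of its UMIs. This rule took 457 nuclei out of 34707 neurons and out of 39953 nuclei in all. The nuclei were thus selected on measured counts of Hdc, Snap25, Syt1 and Rbfox3. The levels of these 4 genes are described without a test.

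All mice were male wild-type C57Bl/6 animals aged 6 to 8 weeks. Of the 18 mice, 12 had chow ad libitum and were pooled as 2 cohorts of 6, prepared on separate days, and 6 were fasted for 16 h overnight and made up 1 pool. Nuclei of each pool were sorted into 2 tubes, which gave ad libitum libraries 1 to 4 and fasted libraries 1 and 2. The labels do not say which ad libitum libraries share a pool, and since all fasted mice were in 1 pool, fasting cannot be told apart from that pool. The libraries held 8490, 6678, 6427, 6436, 6010 and 5912 nuclei and between 31757655 and 59940795 UMIs.

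Histaminergic neurons lie in the tuberomammillary nucleus of the posterior hypothalamus, project to most of the brain and are most active during waking. They load histamine into vesicles with the vesicular monoamine transporter Slc18a2. Released histamine is taken up and methylated by Hnmt, and the product is oxidized by the monoamine oxidase Maob. Release is held back by the autoreceptor Hrh3, and orexin, an arousal peptide encoded by Hcrt, excites these neurons through its receptor Hcrtr2.

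The 6 libraries gave 80, 40, 102 and 103 Hdc neurons from ad libitum mice and 61 and 71 from fasted mice. In the ad libitum libraries these were 1.07% (95% exact binomial interval 0.849 to 1.33), 0.688% (0.492 to 0.936), 1.64% (1.34 to 1.98) and 1.64% (1.34 to 1.99) of neurons. In the fasted libraries they were 1.35% (1.03 to 1.73) and 1.62% (1.26 to 2.03). These intervals cover counting error only. Ad libitum libraries 1 and 2 lay below the other four, and the fasted shares fell inside the ad libitum range. The mean share was 1.26% ± 0.466 (SD, n = 4 libraries) in ad libitum mice and 1.48% ± 0.188 (SD, n = 2 libraries) in fasted mice, a difference of 0.223 percentage points. It is given without a test, because Hdc counts set the membership and the libraries come from only 3 pools. The rule needs 2 Hdc UMIs and so depends on depth. With every nucleus thinned to 2000 UMIs, which left out 3 shallow Hdc neurons and 438 other neurons, the difference was 0.0648 percentage points.

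Hdc neurons were deeper than other neurons in every library. Their median was 7544, 8254, 12988 and 13011 UMIs in the ad libitum libraries and 12194 and 11245 UMIs in the fasted libraries, against 4619 to 8866 UMIs in other neurons. Ribosomal protein transcripts split the ad libitum libraries in the same way, with 0.365% and 0.494% of the UMIs of Hdc neurons in libraries 1 and 2, 1.59% and 1.70% in libraries 3 and 4, and 0.199% and 0.205% in the fasted libraries. Of 456 barcodes of Hdc neurons, 6 also occurred among the nuclei of another library, and 1 of these marked an Hdc neuron in both. A doublet score, set to mark about 5% of nuclei in each library, marked 23 Hdc neurons (5.03%).

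Hdc (GRCm38 chr2:126593667-126619299, minus strand; coordinates here are of whole genes in GENCODE M21) stood at 1975, 1829, 2032 and 1922 CPM in the ad libitum libraries and 1937 and 1989.9 CPM in the fasted libraries, with CPM for counts of the gene scaled to a total of 1000000 UMIs in the class. The ad libitum and fasted ranges of these sums overlapped. Per nucleus, the median was 19.6, 18.05, 19.9 and 18.5 Hdc UMIs per 10000 in the ad libitum libraries and 17.4 and 15.8 in the fasted libraries, which were the lowest. Under the stricter rule described below it was 20.7, 19.5, 21.2 and 21.9 in the ad libitum libraries. There the fasted libraries had 22.7 and 21.1 and were not the lowest. Hdc neurons held 85.4% of all Hdc UMIs in the dataset. Outside them an Hdc UMI was found in 2.61%, 2.27%, 7.01% and 7.40% of other neurons in the ad libitum libraries and in 4.33% and 4.79% in the fasted ones. Oligodendrocyte nuclei, which should lack Hdc, carried an Hdc UMI in 1.65% of 850 nuclei at a median of 2434 UMIs, against a median of 6470 UMIs in other neurons. Of these nuclei 664 came from the fasted libraries and 14 from each of ad libitum libraries 3 and 4. Shares in oligodendrocyte nuclei, here and below, are pooled over this unequal mix of libraries.

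The label of these nuclei was checked against Slc18a2 and Maob, which the rule did not use, and held for the nuclei with many Hdc UMIs but not for those near the threshold. Slc18a2 was found in 98.8% and Maob in 78.2% of the 339 members with 8 or more Hdc UMIs. Among the 32 members with 4 to 7 Hdc UMIs the shares were 59.4% and 34.4%, among the 15 members with 3 they were 33.3% and 13.3%, and among the 71 members with 2, just inside the threshold, they were 11.3% and 4.23%. Just outside it, 1559 neurons with 1 Hdc UMI had shares of 10.0% and 3.78%, and 32640 neurons with none had 7.76% and 3.10%. A further 51 neurons had 2 or more Hdc UMIs but fewer than 2 per 10000, and 25.5% of these were marked as doublets.

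**Figure D1:**
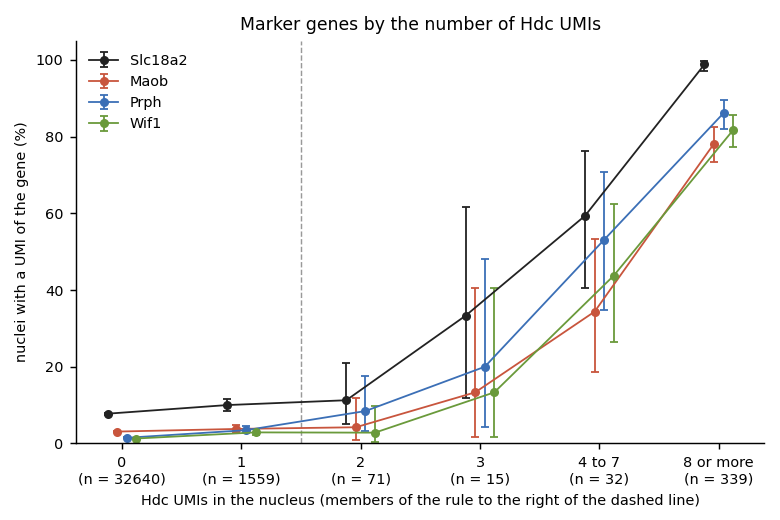
Share of neurons with a UMI of Slc18a2, Maob, Prph or Wif1 (percent, vertical axis) by the number of Hdc UMIs in the nucleus (horizontal axis, with n nuclei), with 95% exact binomial intervals. Members with 2 Hdc UMIs lie close to the nonmembers with 1, and members with 8 or more lie between 78.2% for Maob and 98.8% for Slc18a2.

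A stricter rule, with at least 4 Hdc UMIs and at least 4 per 10000, kept 368 of the 457 nuclei and left out 89. Slc18a2 was found in 95.7% of the 368 and in 16.9% of the 89, and Maob in 74.7% and 6.74%. At least 3 of the 4 genes Slc18a2, Maob, Prph and Wif1 were carried by 307 of the 368 nuclei (83.4%), by 4 of the 89 (4.49%) and by 28 of 34250 other neurons (0.0818%). Prph and Wif1 are among the genes of largest fold change in these same nuclei, so this combination is a description and gives no independent check of the label. The 89 nuclei made up 11.3%, 12.5%, 14.7% and 21.4% of Hdc neurons in the ad libitum libraries and 31.1% and 26.8% in the fasted libraries. The fasted shares were both above every ad libitum share, a description without a test since Hdc counts set both rules. Fasting results of single genes and gene lists are therefore given under the stricter rule too where they are described in detail. With the stricter rule the share of neurons differed by -0.00375 percentage points between fasted and ad libitum libraries.

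Which genes set Hdc neurons apart was asked by comparing their summed UMIs with those of all 34250 other neurons within each pool (edgeR quasi-likelihood test, Benjamini-Hochberg adjusted p under 0.05). Of 23485 genes tested, 7.95% (1867) were higher and 13.9% (3270) were lower in Hdc neurons, and these shares are the background for each gene list below. The filter passed 11345 genes in Hdc neurons alone. The rest entered through other neurons alone, so their calls, and counts of lower genes that include them, are descriptions. DESeq2 called 1609 higher and 1783 lower, so that 47.4% of its calls were higher, against 36.3% of those of edgeR.

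Genes for storing histamine and for oxidizing its methylated product were among those higher in Hdc neurons. Slc18a2 (chr19:59260896-59296012, plus strand) was at 478, 401, 390.2 and 374 CPM in the ad libitum libraries and 415 and 388 CPM in the fasted libraries. Other neurons had 13.5 to 15.7 CPM (log2 fold change 4.79 ± 0.075 SE, edgeR adjusted p = 1.53e-57). Maob (chrX:16709282-16817366, minus strand) was at 124, 128, 217 and 198 CPM in the ad libitum libraries and 168 and 163 CPM in the fasted libraries. Other neurons had 4.30 to 5.39 CPM (log2 fold change 5.21 ± 0.10 SE, edgeR adjusted p = 1.53e-51). For both genes every library of Hdc neurons lay above every library of other neurons. Maob fell into a lower pair, ad libitum libraries 1 and 2, and a higher pair, libraries 3 and 4, with the fasted libraries between them.

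After thinning to 2000 UMIs, Slc18a2 was found in 53.3% of Hdc neurons, 2.62% of other neurons and 0.796% of oligodendrocyte nuclei. The same shares for Maob were 23.8%, 0.955% and 0.318%. Maoa, the other monoamine oxidase, was also higher, at 132 ± 10.2 CPM (SD, n = 6 libraries) against 31.3 ± 1.77 CPM (log2 fold change 2.09 ± 0.088 SE, edgeR adjusted p = 8.45e-32), as was Slc29a4, a low-affinity monoamine transporter of the plasma membrane (log2 fold change 0.84 ± 0.24 SE, edgeR adjusted p = 0.00309). Ddc, which decarboxylates dopa and 5-hydroxytryptophan, was lower (log2 fold change -0.74 ± 0.14 SE, edgeR adjusted p = 1.40e-05), as was the monoamine transporter Slc22a3 at 1.26 ± 1.29 CPM (log2 fold change -1.64 ± 0.50 SE, edgeR adjusted p = 0.0106). Slc22a3 passed the filter through other neurons alone, so its call is a description. Of the 9 genes of the histamine list that were tested, 4 were higher, 2 were lower and 3 did not pass. Those 3 were Hnmt, the histamine methyltransferase, at 16.8 ± 5.13 CPM against 17.2 ± 1.99 CPM (log2 fold change -0.078 ± 0.18 SE, edgeR adjusted p = 0.868), the aldehyde dehydrogenase Aldh2 (log2 fold change -0.26 ± 0.14 SE, edgeR adjusted p = 0.208), and the amino acid transporter Slc7a5 (log2 fold change 0.39 ± 0.22 SE, edgeR adjusted p = 0.209).

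Of the 4 histamine receptors, 3 could be tested. The autoreceptor Hrh3 was higher, at 137, 113, 65.9 and 37.2 CPM in the ad libitum libraries and 54.3 and 55.1 CPM in the fasted libraries against 17.3 to 24.5 CPM in other neurons (log2 fold change 1.69 ± 0.12 SE, edgeR adjusted p = 7.58e-20). Its level varied among the ad libitum libraries from 37.2 to 137 CPM, and the fasted values lay within that range. Hrh1 was lower at 3.46 ± 1.66 CPM (SD, n = 6) against 12.1 ± 0.532 CPM (log2 fold change -2.07 ± 0.31 SE, edgeR adjusted p = 8.13e-08). Hrh2 had UMIs in 1 of the 6 libraries of Hdc neurons and was lower (3 UMIs in all, a ratio of 0.0796 to the other class with an exact 95% counting interval of 0.0164 to 0.233, edgeR adjusted p = 1.56e-07). Hrh1 and Hrh2 passed the filter through other neurons alone, so their calls are descriptions. Hrh4 had no UMI in Hdc neurons.

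The 20 genes named for the largest fold change among those detected in at least 20% of Hdc neurons held structural, signalling and transport genes. Prph, an intermediate filament protein of neurons, stood at 196, 163, 303 and 328 CPM in the ad libitum libraries and 182 and 144 CPM in the fasted libraries. Other neurons had 1.5 to 3.48 CPM (log2 fold change 6.69 ± 0.10 SE, edgeR adjusted p = 3.62e-59). Ad libitum libraries 3 and 4 were the highest, and every Hdc neuron value was far above every other neuron value. Wif1, a secreted inhibitor of Wnt proteins, was at 223, 195, 226 and 268 CPM in the ad libitum libraries and 227 and 174 CPM in the fasted libraries. Other neurons had 1.81 to 2.52 CPM (log2 fold change 6.68 ± 0.10 SE, edgeR adjusted p = 2.07e-58). The Wnt ligand gene Wnt2 was also higher, at 38.4 ± 8.50 CPM (SD, n = 6) (log2 fold change 6.59 ± 0.34 SE, edgeR adjusted p = 8.38e-27), as was Lef1, the transcription factor through which canonical Wnt signals act (log2 fold change 3.40 ± 0.10 SE, edgeR adjusted p = 7.33e-42).

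Receptor genes in this set were Gfral, the receptor of the stress hormone GDF15, at 21.2, 32.0, 26.4 and 24.8 CPM in the ad libitum libraries and 57.0 and 57.6 CPM in the fasted libraries and 0.241 to 0.823 CPM in other neurons (log2 fold change 6.11 ± 0.34 SE, edgeR adjusted p = 3.47e-25), Il6ra, the interleukin 6 receptor (log2 fold change 5.47 ± 0.31 SE, edgeR adjusted p = 1.36e-24), and Pdgfrb, a platelet-derived growth factor receptor (log2 fold change 4.85 ± 0.16 SE, edgeR adjusted p = 7.77e-38). Gfral was found in 25.6% of Hdc neurons and 0.324% of other neurons, and after thinning in 7.05%, 0.106% and, in oligodendrocyte nuclei, 0.318%. Gfral was higher in both fasted libraries than in the ad libitum libraries, but did not pass the test for fasting given below (log2 fold change 1.13, and 1.29 under the stricter rule). Transport genes were Slc16a10, which carries aromatic amino acids, at 631 ± 94.4 CPM against 14.6 ± 3.24 CPM (log2 fold change 5.49 ± 0.076 SE, edgeR adjusted p = 1.17e-60), the anion exchanger Slc26a4 (log2 fold change 5.84 ± 0.21 SE, edgeR adjusted p = 3.74e-36), and Slc35d3, an orphan member of the nucleotide sugar transporters (log2 fold change 6.30 ± 0.27 SE, edgeR adjusted p = 2.79e-31).

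The remaining genes of the set were the sialic acid lyase Npl (log2 fold change 4.42), the kinase Mapkapk3 (4.95), Fam107b (4.93), the myosin Myo1e (4.48), the matrix protein Olfml2b (4.39), Atf7ip2 (5.14) and the predicted genes Gm3289 (8.24), Gm31614 (5.63) and Gm35019 (5.21). Myo1e was also found in 22.6% of oligodendrocyte nuclei after thinning, against 9.69% of Hdc neurons. Under the stricter rule the fold changes of the 20 genes were all larger, with Slc18a2 at 4.97 and Maob at 5.40.

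**Figure D2:**
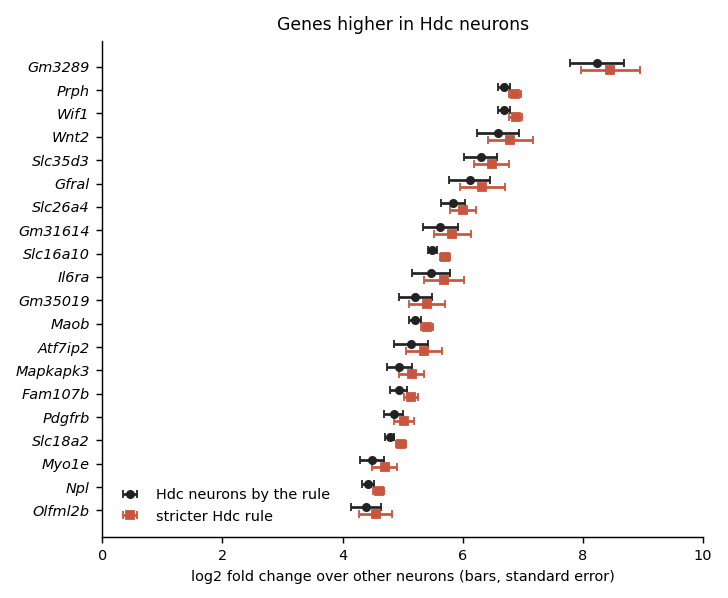
Log2 fold change of 20 genes in Hdc neurons over other neurons (horizontal axis, bars for the standard error), for the 457 Hdc neurons (circles) and for the 368 of the stricter rule (squares). Values run from 4.39 for Olfml2b to 8.24 for Gm3289, and the stricter rule moved each of them up.

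The fast transmitter genes of Hdc neurons differed from one another. Gad1, a glutamate decarboxylase that makes GABA, was at 179, 137, 263 and 237 CPM in the ad libitum libraries and 183 and 214 CPM in the fasted libraries. Other neurons had 37.8 to 73.0 CPM (log2 fold change 1.95 ± 0.075 SE, edgeR adjusted p = 3.50e-34). Gad2, the second glutamate decarboxylase, was lower, at 26.1, 20.4, 61.5 and 33.5 CPM in the ad libitum libraries and 23.1 and 20.8 CPM in the fasted libraries. Other neurons had 68.2 to 143 CPM (log2 fold change -1.54 ± 0.11 SE, edgeR adjusted p = 2.99e-19). The classes did not overlap for either gene, and Gad2 was highest in ad libitum library 3 among the Hdc values.

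Slc32a1, which loads GABA into vesicles, was lower at 8.16, 2.91, 22.7 and 23.3 CPM in the ad libitum libraries and 4.07 and 4.90 CPM in the fasted libraries. Other neurons had 21.2 to 96.1 CPM (log2 fold change -1.92 ± 0.15 SE, edgeR adjusted p = 7.88e-18). Its ranges overlapped across libraries, but Hdc neurons were the lower class within each library. Slc17a6, which loads glutamate into vesicles, was also lower (log2 fold change -1.68 ± 0.12 SE, edgeR adjusted p = 3.46e-20). Of 13 transmitter genes tested, 3 were higher and 6 lower. The other two higher genes were the glutamine synthetase Glul (log2 fold change 0.62 ± 0.16 SE, edgeR adjusted p = 6.98e-04) and Chat, which makes acetylcholine, found in 2.84% of Hdc neurons (log2 fold change 1.56 ± 0.54 SE, edgeR adjusted p = 0.0203). The call of Chat was lost with DESeq2, with thinning and without ad libitum library 1 (edgeR adjusted p = 0.074), ad libitum library 4 (0.22) or fasted library 1 (0.065), and Chat was higher in 5 of 6 libraries. Of 8 tested genes of other monoamine neurons none was higher. Th, the tyrosine hydroxylase of dopamine neurons, was lower at 1.97 ± 1.34 CPM against 7.61 ± 1.75 CPM (log2 fold change -1.91 ± 0.38 SE, edgeR adjusted p = 4.57e-05), as was Gch1, which makes the cofactor of that enzyme, with a UMI in 0.219% of Hdc neurons (1 UMI in all, a ratio of 0.0648 to the other class with an exact 95% counting interval of 0.00164 to 0.362, edgeR adjusted p = 3.20e-04). Th and Gch1 passed the filter through other neurons alone, so their calls are descriptions.

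**Figure D3:**
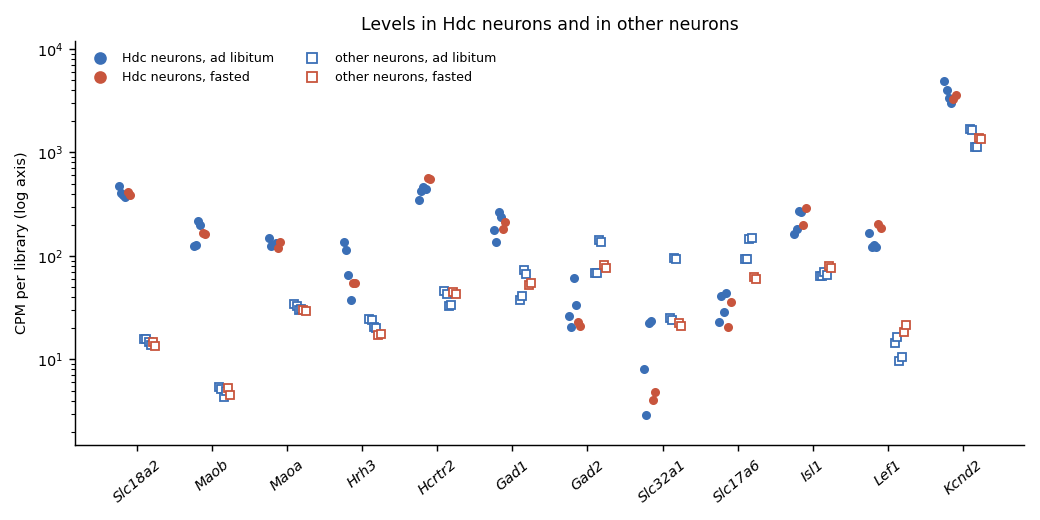
CPM per library on a log axis for 12 genes, with Hdc neurons as filled circles and other neurons as open squares, ad libitum in blue and fasted in red. Slc18a2 lies at 374 to 478 CPM in Hdc neurons and 13.5 to 15.7 CPM in other neurons, while Gad2, Slc32a1 and Slc17a6 lie lower in Hdc neurons.

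Of 28 neuropeptide genes tested 22 were lower and none higher. In Hdc neurons 19 of the 28 passed the filter, and the rest entered through other neurons alone, so the count of lower genes is a description. Gal, which encodes galanin, was at 23.4 ± 24.6 CPM (SD, n = 6) against 92.1 ± 109 CPM (log2 fold change -1.83 ± 0.11 SE, edgeR adjusted p = 1.04e-22), and Agrp was also lower (log2 fold change -1.16 ± 0.11 SE, edgeR adjusted p = 1.28e-13). Pmch, the gene of melanin-concentrating hormone, was lower (log2 fold change -2.09 ± 0.10 SE, edgeR adjusted p = 6.26e-29), and in every library. For Hcrt the summed test gave a lower level (log2 fold change -1.08 ± 0.15 SE, edgeR adjusted p = 1.56e-11), but the libraries went both ways. Hcrt was at 31.0, 93.1, 109.8 and 104 CPM in the ad libitum libraries and 8.15 and 11.0 CPM in the fasted libraries of Hdc neurons and at 31.0, 34.8, 379 and 373 CPM in the ad libitum libraries and 13.4 and 7.09 CPM in the fasted libraries of other neurons. Hdc neurons were far lower in ad libitum libraries 3 and 4 and were higher in ad libitum library 2 and fasted library 2, and DESeq2 did not call the gene. Tac1, the substance P precursor, did not pass (log2 fold change -0.10 ± 0.089 SE, edgeR adjusted p = 0.502). Peptide UMIs were spread over many nuclei. Hcrt was found in 38.5% of Hdc neurons, 24.8% of other neurons and, after thinning, 10.4%, 8.57% and 2.55% of Hdc neurons, other neurons and oligodendrocyte nuclei. These shares are pooled over libraries. The fasted libraries, where Hcrt was lowest, held 664 of 850 oligodendrocyte nuclei and 8784 of 34250 other neurons before thinning. The part of this mix in the shares was not tested.

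Among 34 receptors for wake and sleep signals 3 were higher and 23 lower. Of the 34, 14 passed the filter in Hdc neurons and the rest through other neurons alone, so the count of lower genes is a description. Hcrtr2 (chr9:76225880-76323856, minus strand) stood at 351, 427, 469 and 448 CPM in the ad libitum libraries and 567 and 557 CPM in the fasted libraries. Other neurons had 32.7 to 46.2 CPM (log2 fold change 3.60 ± 0.07 SE, edgeR adjusted p = 5.71e-52). The classes did not overlap, and both fasted libraries were above the 4 ad libitum libraries in Hdc neurons. The other orexin receptor gene, Hcrtr1, was lower at 2.53 ± 2.56 CPM against 6.18 ± 0.901 CPM (log2 fold change -1.16 ± 0.38 SE, edgeR adjusted p = 0.0182). Hcrtr1 passed the filter through other neurons alone, so its call is a description. Galr1, a galanin receptor, was at 32.8 ± 10.1 CPM against 7.80 ± 3.15 CPM (log2 fold change 1.82 ± 0.18 SE, edgeR adjusted p = 2.23e-13), and the somatostatin receptor Sstr1 was higher as well (log2 fold change 1.40 ± 0.28 SE, edgeR adjusted p = 4.92e-06). The serotonin receptor Htr2c was lower (log2 fold change -0.57 ± 0.10 SE, edgeR adjusted p = 6.27e-07), as were the muscarinic receptor Chrm3 (log2 fold change -2.32 ± 0.093 SE, edgeR adjusted p = 6.27e-33) and the mu opioid receptor Oprm1 (log2 fold change -1.97 ± 0.15 SE, edgeR adjusted p = 1.20e-18).

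No receptor of the 28 tested for feeding signals and hormones was higher, and 21 were lower. Of the 28, 13 passed the filter in Hdc neurons and the rest through other neurons alone, so the count of lower genes is a description. Lepr, the leptin receptor, was at 1.63, 8.72, 9.52 and 6.56 CPM in the ad libitum libraries and 10.9 and 7.35 CPM in the fasted libraries. Other neurons had 21.8 to 45.0 CPM (log2 fold change -1.94 ± 0.20 SE, edgeR adjusted p = 3.59e-13). Mc4r, the melanocortin receptor, was found in 1.09% of Hdc neurons (log2 fold change -2.49 ± 0.51 SE, edgeR adjusted p = 8.28e-05) and the incretin receptor Glp1r in 0.656% (3 UMIs in all, a ratio of 0.192 to the other class with an exact 95% counting interval of 0.0395 to 0.563, edgeR adjusted p = 0.00583). Lepr, Mc4r and Glp1r passed the filter through other neurons alone, so their calls are descriptions. The glucocorticoid receptor Nr3c1 was also lower (log2 fold change -0.89 ± 0.11 SE, edgeR adjusted p = 5.65e-10). Insr, the insulin receptor, at 78.4 ± 14.7 CPM against 92.9 ± 8.34 CPM (log2 fold change -0.16 ± 0.088 SE, edgeR adjusted p = 0.216), and Igf1r (log2 fold change 0.13 ± 0.11 SE, edgeR adjusted p = 0.499) did not pass the test.

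Of 44 transcription factors of the posterior hypothalamus 9 were higher and 25 lower. Barhl2 had the largest fold change of these, at 44.0, 40.7, 20.5 and 21.1 CPM in the ad libitum libraries and 21.7 and 29.4 CPM in the fasted libraries. Other neurons had 0.943 to 2.56 CPM (log2 fold change 4.05 ± 0.28 SE, edgeR adjusted p = 9.51e-21). Lef1 followed at 166, 122, 128 and 121 CPM in the ad libitum libraries and 204 and 185 CPM in the fasted libraries, against 9.65 to 21.5 CPM. Others that were higher included the homeobox genes Bsx (log2 fold change 2.72), Dlx5 (1.93), Isl1 (1.81) and Dlx6 (1.51), the T-box gene Tbx3 (2.33) and the Dlx6 antisense RNA Dlx6os1, whose reads share the Dlx6 locus. Among the lower genes were Sim1 at 3.09 ± 2.72 CPM against 31.3 ± 5.99 CPM (log2 fold change -3.04 ± 0.24 SE, edgeR adjusted p = 1.59e-17), Uncx (log2 fold change -4.07 ± 0.43 SE, edgeR adjusted p = 2.57e-12), Foxb1 (log2 fold change -2.73 ± 0.56 SE, edgeR adjusted p = 8.07e-05), Hmx2 (2 UMIs in all, a ratio of 0.0910 to the other class with an exact 95% counting interval of 0.0110 to 0.330, edgeR adjusted p = 5.15e-05) and Hmx3 (log2 fold change -1.41 ± 0.47 SE, edgeR adjusted p = 0.0207). Sim1 and Hmx2 passed the filter through other neurons alone, so their calls are descriptions. Of the 44 factors, 15 passed it in Hdc neurons and the rest through other neurons alone, so the count of lower factors is a description too. Lhx6 had no UMI in Hdc neurons.

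Of 47 ion channel genes for pacemaking and excitability 6 were higher and 32 lower. Kcnd2, an A-type potassium channel, was at 4885, 3981, 3377 and 3035 CPM in the ad libitum libraries and 3316 and 3550.0 CPM in the fasted libraries. Other neurons had 1117 to 1679 CPM (log2 fold change 1.40 ± 0.053 SE, edgeR adjusted p = 1.52e-34). Scn8a, a sodium channel with persistent and resurgent currents, was at 313 ± 55.3 CPM (SD, n = 6) against 167 ± 17.3 CPM (log2 fold change 0.84 ± 0.10 SE, edgeR adjusted p = 1.82e-15). The calcium-activated potassium channel Kcnn3 (0.45), the sodium channel Scn3a (0.44), the N-type calcium channel Cacna1b (0.33) and the sodium-calcium exchanger Slc8a1 (0.30) were higher by less on the log2 scale. Among the lower genes was the G protein-gated channel Kcnj3 (log2 fold change -2.14 ± 0.10 SE, edgeR adjusted p = 8.07e-29).

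Of 18 subunits of GABA-A and glycine receptors 3 were higher and 13 lower. Gabra2 was at 990.1, 823, 983 and 957 CPM in the ad libitum libraries and 849.8 and 919.6 CPM in the fasted libraries. Other neurons had 361 to 476 CPM (log2 fold change 1.20 ± 0.058 SE, edgeR adjusted p = 2.15e-28). Gabra4 (0.59) and Gabrb1 (0.54) were also higher, and Gabrg3 was lower (log2 fold change -1.86 ± 0.067 SE, edgeR adjusted p = 1.00e-35). Of 21 genes of vesicle release and granins 4 were higher and 13 lower. Those higher were the vesicle proteins Sv2c (log2 fold change 1.81 ± 0.079 SE, edgeR adjusted p = 6.64e-31) and Sv2b (log2 fold change 1.49 ± 0.09 SE, edgeR adjusted p = 2.49e-23), the calcium sensor Syt2 (log2 fold change 1.32 ± 0.14 SE, edgeR adjusted p = 6.07e-13) and Cadps, which primes dense-core vesicles (log2 fold change 0.49 ± 0.094 SE, edgeR adjusted p = 2.20e-06).

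Of 24 immediate early genes 4 were higher and 7 lower. Nr4a1, a nuclear receptor induced by activity, was at 14.7, 32.0, 35.9 and 29.9 CPM in the ad libitum libraries and 70.6 and 57.6 CPM in the fasted libraries. Other neurons had 9.53 to 19.4 CPM (log2 fold change 1.55 ± 0.14 SE, edgeR adjusted p = 5.17e-15). Npas4 (1.33), Fosl2 (1.30) and the kinase Sgk1 (0.53) were higher as well. Of 25 genes listed for a response to fasting or glucocorticoids 5 were higher and 6 lower, and the cell cycle inhibitor Cdkn1a was at 17.9, 17.4, 50.5 and 47.4 CPM in the ad libitum libraries and 25.8 and 20.8 CPM in the fasted libraries. Other neurons had 0.766 to 3.72 CPM (log2 fold change 3.77 ± 0.25 SE, edgeR adjusted p = 4.39e-21). Foxo3, a transcription factor held back by insulin signalling, was also higher (log2 fold change 1.00 ± 0.14 SE, edgeR adjusted p = 6.16e-09). None of the 18 clock genes was higher and 10 were lower, among them Per2, at 2.90 ± 2.78 CPM against 14.6 ± 2.41 CPM (log2 fold change -2.75 ± 0.33 SE, edgeR adjusted p = 1.04e-10). Per2 passed the filter through other neurons alone, so its call is a description.

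The 10 genes named for the largest decrease among those detected in at least 20% of other neurons were Il1rapl2, Zfp536, Sncaip, Syndig1, Tox, Pbx3, Kctd16, Sorcs3, Rgs6 and Ndst4, with log2 fold changes from -2.68 to -2.34. Il1rapl2, a synaptic adhesion protein, was at 26.1, 49.4, 74.7 and 76.6 CPM in the ad libitum libraries and 63.8 and 55.1 CPM in the fasted libraries. Other neurons had 316 to 560.3 CPM (log2 fold change -2.68 ± 0.084 SE, edgeR adjusted p = 3.24e-39). Kctd16, an auxiliary subunit of GABA-B receptors, was at 85.8 ± 24.9 CPM against 448 ± 103 CPM (log2 fold change -2.39 ± 0.084 SE, edgeR adjusted p = 3.14e-36).

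Foxb1 neurons of the mammillary region were taken by the same rule with Foxb1 in place of Hdc and numbered 167. Of 11410 genes tested, 12.1% (1382) were higher and 9.55% (1090) lower in Hdc neurons (edgeR). DESeq2 called 497 higher and 535 lower, and edgeR without the filter 1724 higher and 939 lower. The filter passed 11345 genes in Hdc neurons alone, so nearly all of the 11410 entered through Hdc neurons. The balance of higher and lower genes is therefore a description. Wif1, Slc26a4, the secreted protein gene Ism1, Slc35d3 and Gm35019 passed the filter through Hdc neurons alone, with no UMI in Foxb1 neurons. Against a floor of 3 counts over that class, Wif1 was at least 91.1-fold higher in Hdc neurons, Slc26a4 at least 35.7-fold, Ism1 at least 25.3-fold, Slc35d3 at least 24.4-fold and Gm35019 at least 16.8-fold. Lower genes were Cd44, a hyaluronan receptor (2 UMIs in all, a ratio of 0.0104 to the other class with an exact 95% counting interval of 0.00123 to 0.0400, edgeR adjusted p = 1.07e-09), Uncx (log2 fold change -6.19 ± 0.47 SE, edgeR adjusted p = 2.41e-12), the myosin Myo5b (log2 fold change -5.95 ± 0.23 SE, edgeR adjusted p = 6.90e-20), the collagen Col19a1 (log2 fold change -5.52 ± 0.31 SE, edgeR adjusted p = 1.54e-15) and the long noncoding RNA B230323A14Rik (log2 fold change -5.49 ± 0.18 SE, edgeR adjusted p = 3.09e-21). Cd44 passed the filter through Foxb1 neurons alone, so its call is a description. Of 20 transcription factors tested against Foxb1 neurons 11 were higher and 8 lower, and of 8 genes of the histamine list 5 were higher. Of the 20 factors, 15 passed the filter in Hdc neurons and the rest through Foxb1 neurons alone, so the count of lower factors is a description.

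Neurons with Th and Slc6a3, the dopamine transporter, also use Slc18a2, but the rule for them took 17 nuclei (2, 1, 6 and 1 in the ad libitum libraries and 6 and 1 in the fasted). Of 11346 genes 1.67% (189) were higher and 0.864% (98) lower in Hdc neurons (edgeR), and the median of all genes was 0.26 on the log2 scale. With scaling by total UMIs that median was -0.0011 and 170 genes were higher and 195 lower. The filter passed 11345 genes in Hdc neurons alone, so nearly all of the 11346 entered through Hdc neurons. The balance of higher and lower genes is therefore a description. The count of genes called fell to 60 without ad libitum library 3 and to 85 without fasted library 1. Isl1, Prph, Wif1, Npl and Tspan12, a tetraspanin, passed the filter through Hdc neurons alone, with no UMI in the 17 nuclei. Against a floor of 3 counts over them, Prph was at least 12.6-fold, Isl1 at least 12.4-fold, Wif1 at least 11.6-fold, Npl at least 11.0-fold and Tspan12 at least 9.21-fold higher in Hdc neurons. Lower genes were the prolactin receptor Prlr, found in 94.1% of the dopamine nuclei and 18.4% of Hdc neurons (log2 fold change -4.10 ± 0.37 SE, edgeR adjusted p = 3.92e-24), the cation channel Trpc6 (log2 fold change -4.52 ± 0.45 SE, edgeR adjusted p = 5.44e-20), the kinase inhibitor Pkib (log2 fold change -4.48 ± 0.47 SE, edgeR adjusted p = 2.57e-18), Arhgap6 (log2 fold change -3.43 ± 0.37 SE, edgeR adjusted p = 3.01e-17) and the kainate receptor Grik1 (log2 fold change -3.40 ± 0.35 SE, edgeR adjusted p = 1.35e-18).

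Whether Hdc neurons changed with fasting was asked with 2 ad libitum pools against 1 fasted pool, for each of the 3 possible pairings of the ad libitum libraries. The largest of the 3 p-values was kept. No gene of 11345 passed (0%; edgeR quasi-likelihood test, adjusted p under 0.05). The count depended on the pairing, with 0 calls when libraries 1 and 2 were pooled, 2707 when 1 and 3 were and 2889 when 1 and 4 were. Without adjustment, 301 genes (2.65%) had p under 0.05. Of these, 55 were higher and 246 lower in fasted mice. DESeq2 called 1 gene, the mitochondrial mt-Cytb, which is named here after its value was seen. For 15.5% (1758) of genes the fasted values were both above every ad libitum value, and for 12.8% (1455) both were below, and these shares are the background for the counts of gene lists with fasting. The members near the threshold were more frequent in the fasted libraries, as given above.

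The markers of the class did not pass the test. Slc18a2 had a log2 fold change of -0.018 ± 0.12 (SE) and 0.084 under the stricter rule, and Maob -0.069 ± 0.46 and 0.084. For Hcrtr2 it was 0.38 ± 0.34 (edgeR, unadjusted p = 0.317) and 0.54 under the stricter rule. For Nr4a1 it was 1.16 ± 0.47 (edgeR, unadjusted p = 0.0552) and 1.25. The edgeR adjusted p was 1.00 for these 4 genes under both rules.

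Zbtb16, a zinc finger transcription factor that glucocorticoids induce, was at 6.52, 5.82, 6.59 and 6.56 CPM in the ad libitum libraries and 27.2 and 31.8 CPM in the fasted libraries of Hdc neurons (log2 fold change 2.13 ± 0.53 SE, edgeR adjusted p = 1.00). The groups did not overlap, and the same held in other neurons, where Zbtb16 was at 16.8, 15.5, 17.2 and 16.7 CPM in the ad libitum libraries and 78.5 and 76.5 CPM in the fasted libraries. Its response differed by -0.083 ± 0.38 (SE) on the log2 scale between Hdc neurons and other neurons, and under the stricter rule its log2 fold change in Hdc neurons was 2.05. Of 16 tested genes of fasting or glucocorticoid response, 7 were above all ad libitum libraries in both fasted ones and none below, against 15.5% and 12.8% of all genes. The list held Zbtb16, Fam107b, Vgf and Sv2c, which the study named among its top fasting genes in these same data. The count is therefore a description. Summed over the whole list, CPM had a ratio of fasted to ad libitum means of 1.42, 1.49 under the stricter rule and 1.51 in other neurons.

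The other genes named by the lowest unadjusted p among the higher ones were Sfta3-ps, Cdh13, Plcl1, 5330431K02Rik, Pls1, Zeb2, Hs3st4, Slc1a3 and Trpm3, with log2 fold changes from 1.16 to 2.62 and adjusted p = 1.00 for each (edgeR). Cdh13, a cell adhesion protein, was at 127, 174, 108 and 115 CPM in the ad libitum libraries and 368 and 267 CPM in the fasted libraries of Hdc neurons, and at 75.3, 85.3, 62.1 and 68.5 CPM in the ad libitum libraries and 124 and 81.9 CPM in the fasted libraries under the stricter rule. The groups did not overlap by the first rule and overlapped by the second, and the log2 fold change went from 1.26 to 0.50. Hs3st4, which sulfates heparan, went from 1.16 to 0.39, whereas Plcl1, a phospholipase C-like protein, went from 1.40 to 1.27, Zeb2, a transcriptional repressor, from 2.34 to 2.20 and the astrocytic glutamate transporter Slc1a3 from 2.62 to 2.73.

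Lower in fasted mice by the same rule were Hcrt, Gm48746, Hbb-bs, Lrp5, Mrpl36, Snrpf, Nudt10, mt-Co1, Cd164 and Pmch (adjusted p = 1.00 for each, edgeR). Of the UMIs of Hdc neurons, mitochondrial transcripts were 0.0390%, 0.0663%, 0.183% and 0.210% in the ad libitum libraries. In the fasted libraries they were 0.0121% and 0.0106%, the lowest, and the part of this difference in these values was not tested. For Hcrt, with the values given above, the fasted libraries were the lowest in both classes. In other neurons ad libitum libraries 3 and 4 exceeded libraries 1 and 2 by more than these exceeded the fasted ones, and in Hdc neurons Pmch and the mitochondrial gene mt-Co1 were higher in libraries 3 and 4 than in 1 and 2. Hbb-bs, a hemoglobin gene of red blood cells, was at 4.89, 90.1, 19.8 and 11.7 CPM in the ad libitum libraries and 0 and 3.67 CPM in the fasted libraries, with 29 of its 80 UMIs in 1 nucleus. Of the 164 UMIs of Lrp5, a Wnt coreceptor, 52 came from 1 nucleus. The mitochondrial ribosome gene Mrpl36 was at 32.6, 23.3, 27.1 and 45.2 CPM in the ad libitum libraries and 9.50 and 6.12 CPM in the fasted libraries, and the splicing factor gene Snrpf at 39.1, 34.9, 26.4 and 31.4 CPM in the ad libitum libraries and 6.79 and 9.80 CPM in the fasted libraries. The log2 fold change went from -3.12 to -3.07 under the stricter rule for Hcrt, from -2.14 to -2.09 for Mrpl36 and from -2.01 to -1.85 for Snrpf.

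Summed over 28 neuropeptide genes, Hdc neurons had 418, 538, 1273 and 1415 CPM in the ad libitum libraries and 190.1 and 225 CPM in the fasted libraries. Other neurons had 728, 800.1, 4475 and 4375 CPM in the ad libitum libraries and 366 and 352 CPM in the fasted libraries. In both classes the fasted libraries were the lowest and ad libitum libraries 3 and 4 the highest, as for the ribosomal protein share. The part of free RNA in these sums was not tested. Of 19 peptide genes tested for fasting in Hdc neurons, 11 were below all ad libitum libraries in both fasted ones and none was above, against 12.8% and 15.5% of all genes, with a median log2 fold change of -2.18, against -0.0084 over all genes. The ratio of fasted to ad libitum means of the sum was 0.228, and 0.202 under the stricter rule.

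Against the background of 15.5% of all genes above and 12.8% below, 16 of 40 channel genes were above in both fasted libraries and none below, with a median of 0.27. Their list nevertheless summed to 11832, 11030.0, 9207 and 8918 CPM in the ad libitum libraries and 11234 and 11558 CPM in the fasted libraries, so that ad libitum library 1 was above both fasted libraries and libraries 3 and 4 were the lowest. Immediate early genes, with 5 of 14 above and none below, summed to 302, 323, 362 and 354 CPM in the ad libitum libraries and 425 and 465 CPM in the fasted libraries, and in other neurons to 340.1, 336, 310.3 and 307 CPM in the ad libitum libraries and 422 and 425 CPM in the fasted libraries. Clock genes had 6 of 14 above and none below (median 0.48), feeding and hormone receptors 4 of 13 above and none below (median 0.15). Among 8 genes of the histamine list none was above and 1 was below, a share near the 12.8% of all genes. Under the stricter rule the ratio of fasted to ad libitum means of the summed CPM went from 1.11 to 1.12 for channels, from 1.33 to 1.42 for immediate early genes, from 1.56 to 1.40 for clock genes and from 1.20 to 1.20 for feeding and hormone receptors. In other neurons it was 1.14 for channels, 1.31 for immediate early genes, 1.24 for clock genes and 1.14 for feeding and hormone receptors.

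**Figure D4:**
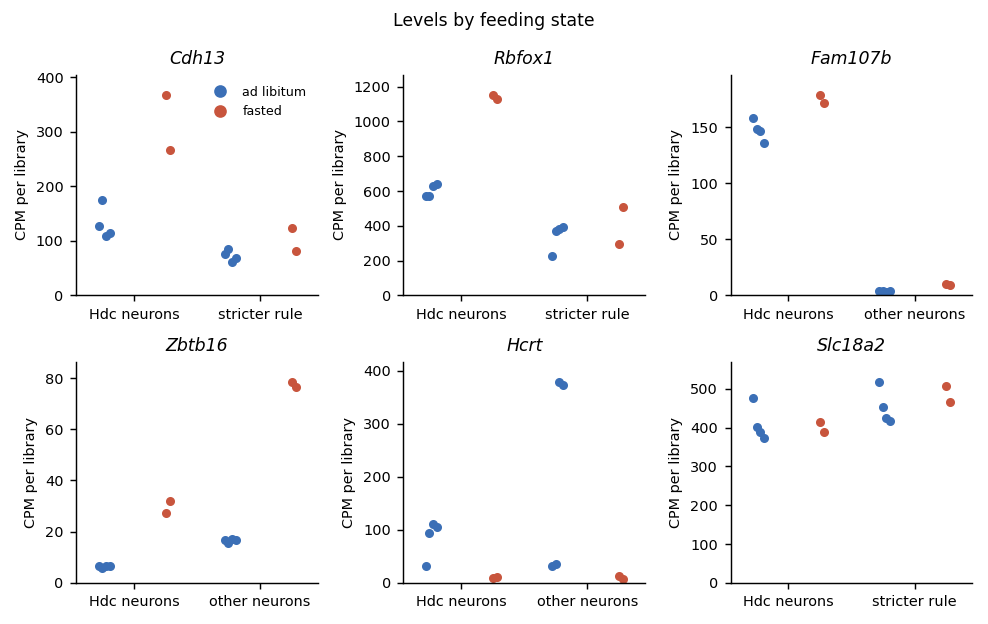
CPM per library (vertical axes from 0) of 6 genes in ad libitum (blue) and fasted (red) libraries, in Hdc neurons beside either the stricter rule or other neurons. Cdh13 and Rbfox1 separate the groups in Hdc neurons and not under the stricter rule, Zbtb16 separates them in both classes, and Slc18a2 overlaps.

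Whether the fasting response of Hdc neurons differed from that of other neurons was tested as an interaction. Of 23485 genes, 0.0979% (23) passed (edgeR adjusted p under 0.05), 17 with a higher and 6 with a lower response in Hdc neurons. DESeq2 called 1, and under the stricter rule 10 passed, 8 of them among the 23. Without fasted library 1, 9 passed. The test rests on 3 pools with 1 residual degree of freedom and on 1 fasted pool, so a difference between pools cannot be told apart from fasting.

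Fam107b (chr2:3570488-3782142, plus strand), a relative of the glucocorticoid-induced gene Fam107a, was at 158, 148, 147 and 136 CPM in the ad libitum libraries and 179 and 171 CPM in the fasted libraries of Hdc neurons and 3.56, 3.99, 2.94 and 3.61 CPM in the ad libitum libraries and 10.7 and 9.69 CPM in the fasted libraries of other neurons. It was already high in ad libitum Hdc neurons, and the fasted libraries lay above the ad libitum ones in both classes. The log2 difference between the responses was -1.14 ± 0.25 (SE, edgeR adjusted p = 0.00543), and -1.01 under the stricter rule (edgeR adjusted p = 0.128). Avp, the vasopressin gene, was at 73.4, 69.8, 158 and 163 CPM in the ad libitum libraries and 19.0 and 58.8 CPM in the fasted libraries of Hdc neurons and 124, 109, 571 and 503 CPM in the ad libitum libraries and 38.3 and 41.6 CPM in the fasted libraries of other neurons, with a log2 difference of 1.43 that was 0.50 under the stricter rule.

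A group of 11 genes was lower in Hdc neurons than in other neurons in every library and had a higher fitted response in the 457 Hdc neurons, namely Cdh13, Sgcz, Rbfox1, Mgat4c, Hs3st4, Cadps2, Trpm3, Plcl1, Sgcd, Rora and Brinp3. Rbfox1, a neuronal splicing regulator, was at 574, 573, 629 and 639 CPM in the ad libitum libraries and 1154 and 1130.3 CPM in the fasted libraries of Hdc neurons, at 228, 368, 380.0 and 394 CPM in the ad libitum libraries and 295 and 508 CPM in the fasted libraries under the stricter rule and at 3002, 2924, 2412 and 2439 CPM in the ad libitum libraries and 2949 and 2941 CPM in the fasted libraries of other neurons. Its difference in response was 0.66 (edgeR adjusted p = 2.61e-04) and -0.018 under the stricter rule. That of Brinp3 went from 0.52 to -0.0042 under the stricter rule. Of the 11 genes, Trpm3, a cation channel, also passed under the stricter rule (log2 difference 0.87, edgeR adjusted p = 0.0402).

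Several of the 23 genes rested on few nuclei. The nucleus with the most UMIs held 53 of the 57 UMIs of Rps23rg1, 236 of the 264 of Prss12, 175 of the 364 of Arhgef4 (ENSMUSG00000037509), 20 of the 62 of Pls1 and 219 of the 709 of Ube2cbp. Plekhg3 had no UMI in fasted Hdc neurons and was at least 4.34-fold lower there than in ad libitum Hdc neurons, against a floor of 3 counts over the fasted libraries, while in other neurons it was at 4.30, 4.03, 5.63 and 4.85 CPM in the ad libitum libraries and 5.57 and 6.67 CPM in the fasted libraries.

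The 368 nuclei of the stricter rule were also split into 4 groups by k-means clustering, to describe how they vary. The groups were made from the expression of these same nuclei, so differences between them have no test. Each group had nuclei of all 6 libraries. Each gene was centred within each library before clustering, so this spread over libraries is partly set by the method. Group 1, with 221 nuclei (60.1%), was led by Hdac9, Robo2 and Kcnh7, and carried Hcrtr2 in 98.6% and Maob in 87.8% of nuclei. Group 2, with 76 nuclei (20.7%), was led by Negr1, Cdh18 and the guidance molecule Slit2, with Slit2 in 86.8%, Slc26a4 in 75.0%, Htr2c in 84.2% and Hrh3 in 65.8%, and with Maob in 56.6% and Hcrtr2 in 69.7%. Slc18a2 was found in 99.1% of group 1 and 97.4% of group 2, and Gad1 in 90.0% and 90.8%. In group 3, with 44 nuclei, 40.9% were marked as doublets, and genes such as Lingo2 and Rbfox1 led it. Slit2 was as common there as in group 2, in 88.6% of nuclei. Group 4, with 27 nuclei, was led by the proteoglycan Gpc5 (88.9%) and had a median of 6365 UMIs, against 12952 in group 1. Hcrtr2 was also common in group 4, in 92.6% of nuclei.

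**Figure D5:**
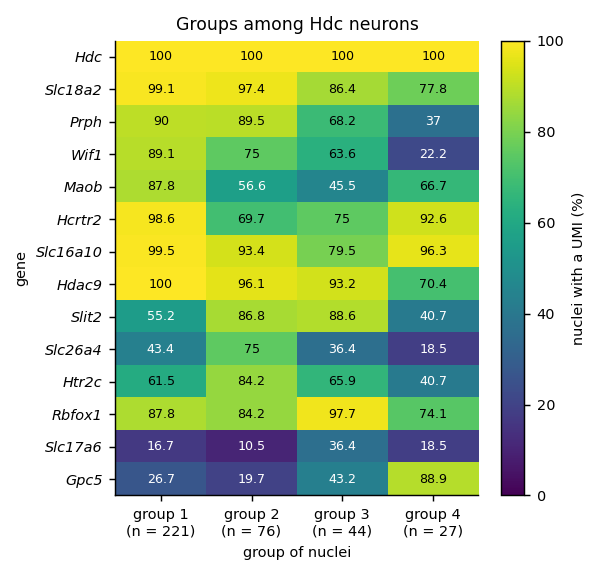
Share of nuclei with a UMI (percent, colour and printed value) of 14 genes in the 4 groups of the 368 nuclei of the stricter rule, with n nuclei per group. Between groups 1 and 2, Slit2, Slc26a4 and Htr2c are more frequent in group 2 and Maob and Hcrtr2 in group 1, and Slc18a2 is common in both.

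Mast cells also make histamine, and 8 of their 10 markers, among them Cpa3, Cma1 and Tpsb2, had no UMI in Hdc neurons. Kit had 6 UMIs and was lower than in other neurons (log2 fold change -3.17 ± 0.41 SE, edgeR adjusted p = 1.73e-09). Kit passed the filter through other neurons alone, so its call is a description. All 8 oligodendrocyte markers were lower in Hdc neurons than in other neurons, 2 of 7 astrocyte markers and 3 of 4 markers of oligodendrocyte precursors were lower and none was higher. In Hdc neurons 3 of the 8, 3 of the 7 and 1 of the 4 passed the filter, so these counts are descriptions. Of tanycyte and ependymal markers Vim (1.75) and Crym (1.21) were higher and 2 of 6 lower, and of 6 microglial markers 1 was higher and 1 lower. Summed oligodendrocyte markers, of which Mbp was the most abundant, reached 68.5, 111, 77.6 and 79.5 CPM in the ad libitum libraries and 151 and 119 CPM in the fasted libraries. Under the stricter rule they reached 62.8, 115, 77.4 and 74.4 CPM in the ad libitum libraries and 161 and 112 CPM in the fasted libraries, where ad libitum library 2 was above fasted library 2. In other neurons they reached 151, 160, 148 and 161 CPM in the ad libitum libraries and 292 and 339 CPM in the fasted libraries. Oligodendrocyte nuclei numbered 86, 72, 14 and 14 in the ad libitum libraries and 329 and 335 in the fasted libraries. Summed precursor markers, nearly all from Lhfpl3, reached 436, 477, 457 and 436 CPM in the ad libitum libraries and 528 and 522 CPM in the fasted libraries, and under the stricter rule 402, 397, 399 and 412 CPM in the ad libitum libraries and 425 and 481 CPM in the fasted libraries. Summed astrocyte markers, with Slc1a2 the most abundant, reached 29.4, 37.8, 30.8 and 32.8 CPM in the ad libitum libraries and 86.9 and 86.9 CPM in the fasted libraries, and in other neurons 82.6, 93.0, 58.5 and 59.8 CPM in the ad libitum libraries and 127 and 123 CPM in the fasted libraries. Under the stricter rule the astrocyte sum was 30.5, 36.1, 29.0 and 24.2 CPM in the ad libitum libraries and 88.1 and 93.8 CPM in the fasted libraries. All 3 sums were higher in the fasted libraries without overlap in the 457 nuclei, and under the stricter rule those of astrocytes and precursors were. Their part in the fasting values above was not tested.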

How the data were processed

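Nuclei were profiled with 10x Genomics Chromium 3' version 3 chemistry. The authors aligned reads to the mouse genome (GRCm38, mm10) with Cell Ranger 5.0.1 and deposited raw UMI counts per gene and barcode, which were used as deposited. The members, gene lists and tests were chosen with earlier results of these data known. UMIs were summed per class and pool and tested with edgeR 4.0.16 in R 4.3.3 (TMM, quasi-likelihood, Benjamini-Hochberg over all genes tested), keeping genes with at least 10 UMIs in at least 2 libraries. The pools are the replicates, and each edgeR test was repeated under the 3 ways to pair ad libitum libraries, with the largest p kept. Comparisons of classes had the pool as a block. CPM is UMIs of a gene scaled to 1000000 UMIs in the class. Named genes had the largest changes past the threshold, detected in at least 20% of nuclei and of 1 direction in all 6 libraries. For fasting they had the lowest unadjusted p among genes whose libraries did not overlap. Members of the gene lists were named as well, along with the 23 interaction genes, and a few are not reported here. Gene coordinates came from GENCODE M21, of the same genome build as the files. The study's own test treats nuclei as replicates and was not used. DESeq2 1.42.0, other poolings, filters, thinning and leaving out libraries were alternatives. The tests were also run on simulated data, and the outcome is not given or used here.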

Additional observations from a re-analysis of the deposited data

Results flagged for a closer look

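Of 156 gene levels tested for an outlying library among the 4 ad libitum libraries of Hdc neurons, 13 had one, where chance gives about 1 in 20. Ad libitum library 1 stood apart for Htr2c at 258 CPM and for Lef1 at 166 CPM. Library 2 stood apart for Mapkapk3 at 26.2 CPM, Zbtb16 at 5.82 CPM, Mc4r at 5.82 CPM and Crym at 0 CPM. Library 3 stood apart for Olfml2b at 38.1 CPM, Prss12 at 173 CPM and Glp1r at 1.46 CPM. Library 4 stood apart for Hmx3 at 5.10 CPM, Foxb1 at 2.19 CPM, Arhgef4 (ENSMUSG00000037509) at 160.4 CPM and Gch1 at 0.729 CPM. Few UMIs lie behind several of these values, with 1 for Gch1, 2 each for Zbtb16, Mc4r and Glp1r, 3 for Foxb1, 7 for Hmx3 and 9 for Mapkapk3. The other libraries had 6.52 to 6.59 CPM of Zbtb16 and 34.3 to 34.9 CPM of Olfml2b, and such gaps are no larger than counting error allows.

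The interaction test of fasting between Hdc neurons and other neurons called 23 genes, from 1 fasted pool and 1 residual degree of freedom, against 10 under the stricter rule, 9 without fasted library 1 and 1 with DESeq2. Log2 differences were higher in Hdc neurons for Cdh13 (1.00), Sgcz (0.83), Rbfox1 (0.66), Mgat4c (0.94), Hs3st4 (0.99), Cadps2 (1.15), Trpm3 (0.84), Plcl1 (0.97), Sgcd (0.82), Rora (0.58) and Brinp3 (0.52), of which Rbfox1 and Brinp3 changed sign under the stricter rule. They were also higher for Rps23rg1 (6.99), Avp (1.43), Pkp3 (2.87), Gm11290 (1.48), Olfr889 (2.31) and Pls1 (1.85). They were lower for Ube2cbp (-2.18), Shoc1 (-2.97), Fam107b (-1.14), Arhgef4 (ENSMUSG00000037509; -2.01), Prss12 (-6.12) and Plekhg3 (-11.58), and the value of Plekhg3 depends on the prior count because both fasted libraries of Hdc neurons were at 0.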

How the results depend on the processing

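With fasting, the count of genes called was 0 in the reported fit, with 6 separate libraries, under the stricter rule, without doublet-marked nuclei, with thinning, with total-count scaling and without any 1 library. It was 2707 and 2889 with ad libitum libraries 1 and 3 or 1 and 4 pooled, 25 without the filter and 1 with DESeq2. The replicate block on numbers 1 and 2 (4 libraries) gave 830 calls, and the same libraries without the block gave 809. Differences of libraries 1 and 2 in the 2 conditions had r = -0.0023 across 11345 genes, which are not independent replicates. Libraries from tubes of 1 pool would differ by sampling noise alone, so this value cannot decide whether the numbers pair the samples.

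Against other neurons 5137 genes were called, 3392 with DESeq2 and 1792 with thinning, which also lowers counts and tests fewer genes. Against Foxb1 neurons it was 2472, and 1032 with DESeq2. Against Th and Slc6a3 neurons it was 287, then 565 with 6 separate libraries, 123 with DESeq2 and 60 to 239 with 1 library left out (175 without ad libitum 1, 60 without 3, 161 without 4, 85 without fasted 1). The 3 poolings gave 32, 36 and 94 calls. Each includes the 23 interaction genes by construction, since the largest p of the 3 was kept. The count was 181 with 6 libraries, 15 without the filter, 10 under the stricter rule, 1 with DESeq2 (Rps23rg1) and 9 to 25 without 1 library (9 without fasted 1).

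Sign reversed for Slc18a2 with fasting (0.084 under the stricter rule and 0.0056 with total-count scaling), for Maob with fasting (0.084 under the stricter rule, 0.014 with thinning, 0.39 with the replicate block and 0.39 without it in the same libraries, and from -0.10 to 0.048 with 1 library left out), and for the share of neurons (-0.00375 percentage points, stricter rule). Against other neurons it reversed for Slc7a5 (-0.87) and Tac1 (0.076) with thinning and for Hnmt (-0.19 to 0.024 with 1 library left out). In the interaction it reversed for Rbfox1 (-0.018) and Brinp3 (-0.0042) under the stricter rule. The cause was not tested. Without 1 library, calls against other neurons were lost for genes that include Chat (adjusted p = 0.074 without ad libitum 1, 0.22 without 4 and 0.065 without fasted 1), Hmx3 (0.19 without ad libitum 3 and 0.070 without fasted 2), Slc8a1 (0.091 without ad libitum 3), Fosl2 (0.0506), Glp1r (0.078) and Slc22a3 (0.063) without ad libitum 4, and Hcrtr1 (0.076 without fasted 2), and the call against Th and Slc6a3 neurons was lost for Arhgap6 (0.084 without fasted 1). With DESeq2, calls were lost for genes that include Chat, Hcrt, Hcrtr1, Hmx3, Glp1r and Slc22a3, and without the filter for others such as Cacna1b and Slc8a1. With thinning they were lost for genes that include Ddc, Slc29a4, Slc22a3, Hrh2, Th, Gch1, Chat, Glul, Hcrtr1, Mc4r, Glp1r, Hmx2, Hmx3, Foxb1, Kcnn3, Cacna1b, Slc8a1, Gabra4, Nr4a1, Npas4, Fosl2, Sgk1, Vim and Crym. Chat, Hcrtr1, Mc4r, Sgk1, Vim and Crym differed from other neurons in the direction given in 5 of 6 libraries. Of values recomputed for single genes, 1755 of 1815 against other neurons, 150 of 150 against Foxb1 neurons, 148 of 149 against Th and Slc6a3 neurons 247 of 345 for the interaction and 327 of 414 for fasting kept their direction and call. Of the others for fasting, 80 passed the threshold, in poolings 1 and 3 or 1 and 4, in the 4 libraries of the block, with or without it, or without the filter, and 7 changed sign. Total-count scaling and the fit without the block were chosen after seeing the data. Depth limits genes with few UMIs in 457 nuclei, and 1 fasted pool limits all fasting results.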
